A study of Mus musculus with 12 samples.

Results

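The glycolytic enzymes of mouse splenic dendritic cells were followed through 10 listed genes, Hk1, Hk2, Gpi1, Pfkl, Aldoa, Tpi1, Pgk1, Pgam1, Eno1 and Ldha. Their probe sets were those to which the platform annotation gave 1 of these symbols and no other, with control probe sets left out. This gave 10 probe sets of 8 genes among 12422 probe sets in all, since no probe set matched Gpi1 or Eno1 by this rule, and both were not analysed here. Aldoa and Hk2 each had 2 probe sets and the other 6 genes had 1. Of the 10, 9 rose above the detection floor on at least 2 arrays and were tested. The other, probe set 161313_at of Hk2, lay between -24.0 and 11.9 on the 12 arrays, below the floor of 91.4 throughout.

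Dendritic cells of high CD11c were sorted from mouse spleen into a CD4+ subset, a CD8+ subset and a double-negative (DN) subset that lacks both surface proteins. Total RNA was taken directly from the sorted cells (fresh) or after they had been kept for 2 h at 37 °C in culture medium (cultured), which gave 6 groups of 2 arrays, numbered by experiment 1 and 2. The labels name no strain, no age and no count of pooled animals. One label of fresh CD8+ replicate 1 names CD4, while its other labels name CD8+. On that array Cd8a was at 1210 and Cd4 at 92.0, and it was used as CD8+.

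Glycolysis splits glucose into pyruvate in the cytosol and yields ATP without oxygen. Hexokinases trap glucose as glucose 6-phosphate, phosphofructokinase commits the sugar to breakdown, aldolase cleaves it, and the lower enzymes harvest ATP until lactate dehydrogenase turns pyruvate into lactate. In dendritic cells the pathway is known to be drawn on early after activation, and many of its genes are targets of the transcription factor Hif1a, which binds the short core ACGTG or GCGTG.

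Upstream windows of the 2 genes that passed the test after culture, Aldoa and Pfkl, and of Ldha show where such cores lie. The Ldha window held the most core matches among the 10 listed genes, with a palindromic site counted on each strand. Counted as separate sites, it was matched by Pgam1. Each window holds the 250 bases before a transcription start in RefSeq (GRCm38.p6), written 5′ to 3′ on the gene's strand. Capitals mark ACGTG or GCGTG on either strand, so that CACGT and CACGC are matches on the opposite strand. The windows lie at chr7:126799255-126799504 (Aldoa, minus strand, the second of 3 starts), chr10:78009808-78010057 (Pfkl, minus strand, 1 start) and chr7:46845554-46845803 (Ldha, plus strand, the first of 2 starts).
Aldoa: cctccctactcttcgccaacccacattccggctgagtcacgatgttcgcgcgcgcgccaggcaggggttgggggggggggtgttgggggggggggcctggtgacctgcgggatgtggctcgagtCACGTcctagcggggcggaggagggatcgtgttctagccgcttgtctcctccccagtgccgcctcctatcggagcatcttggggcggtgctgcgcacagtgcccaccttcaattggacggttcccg
Pfkl: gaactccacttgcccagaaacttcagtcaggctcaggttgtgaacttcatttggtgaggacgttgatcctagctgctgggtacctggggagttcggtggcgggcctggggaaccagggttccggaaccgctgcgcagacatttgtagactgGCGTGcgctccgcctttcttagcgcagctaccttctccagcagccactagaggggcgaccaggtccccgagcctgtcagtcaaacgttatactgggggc
Ldha: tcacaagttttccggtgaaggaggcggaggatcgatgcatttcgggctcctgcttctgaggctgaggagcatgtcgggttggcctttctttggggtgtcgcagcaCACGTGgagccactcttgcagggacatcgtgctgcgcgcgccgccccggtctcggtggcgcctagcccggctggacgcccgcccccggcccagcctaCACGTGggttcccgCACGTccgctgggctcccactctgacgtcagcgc
The Aldoa window held 1 ACGTG match, 126 bases before the start. The window of the third Aldoa start overlaps it and holds the same match, and that of the first start holds none. The Pfkl window held 1 GCGTG match, 99 bases before its start. The Ldha window held 5 ACGTG matches counted over both strands, 4 of them from 2 palindromic CACGTG sites, which are also E-boxes. Of the 16 windows of the 10 listed genes, 12 held either core, and these belonged to 8 genes. Of all 32851 windows in the table, 38.6% held either core, 16.57% ACGTG, 28.16% GCGTG and 6.02% CACGTG. A match describes these letters and is not a measured binding site.

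After culture Aldoa was called higher and Pfkl lower, and the share of member probe sets that passed was no larger than that of all tested. Averaged over the 3 subsets, 3 of the 9 tested probe sets passed the test, while 39.3% of all 6159 tested probe sets did (17% higher, 22.3% lower). Both Aldoa probe sets rose about 2-fold, Pfkl fell, and Hk1, Hk2, Tpi1, Pgk1, Pgam1 and Ldha did not pass. Taking the brightest probe set per gene, 1 of 8 genes was higher and 1 lower, with a median difference of -0.13 (log2), beside 760 higher and 1151 lower of 4735 genes with a median of -0.06. At an unadjusted p under 0.05 there were 3 of the 8 genes, beside 2394 of the 4735. Differences were tested with limma across all probe sets, on a generalised log2 scale that stays defined below 0 and understates the change of dim probe sets above 0, while a value below 0 can enlarge a difference. A ± after a log2 difference is its SE.

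**Figure D1:**
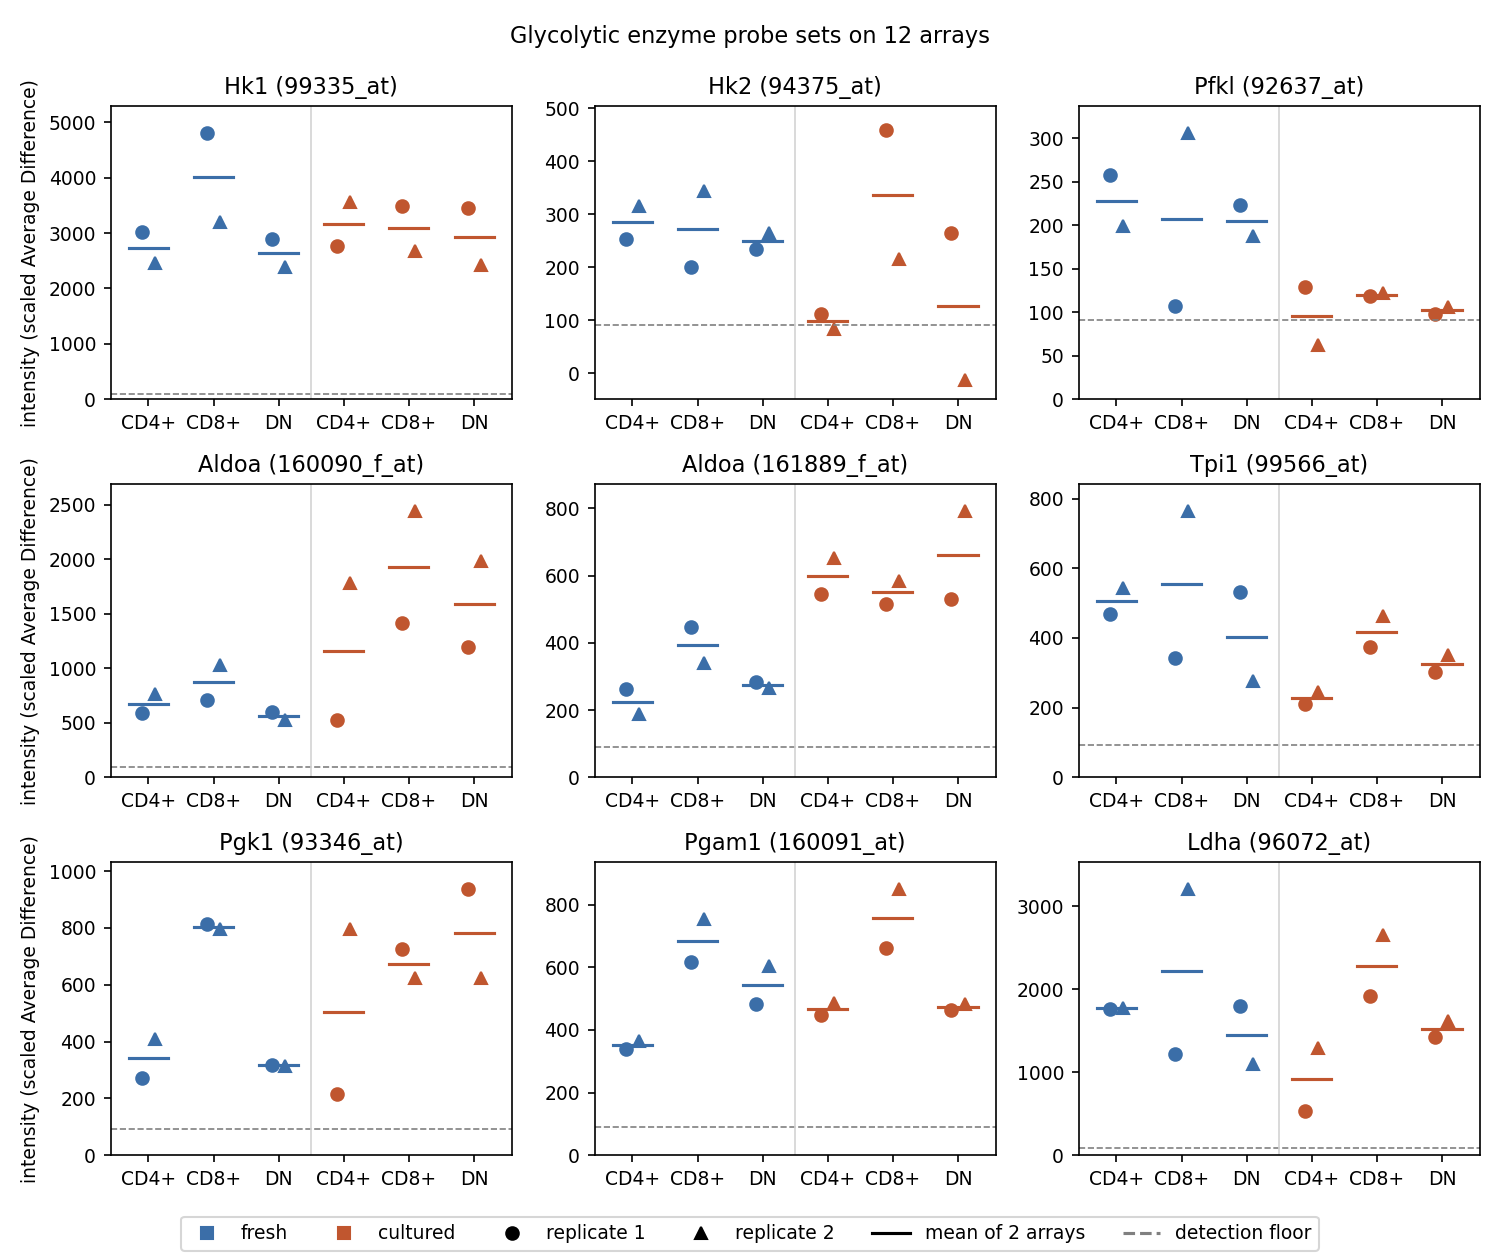
Intensity (Average Difference scaled by the authors, linear axis from 0, or just below 0 for Hk2) of the 9 tested probe sets on each of 12 arrays, in fresh (blue) and cultured (orange) CD4+, CD8+ and DN cells. Circles are replicate 1, triangles replicate 2, bars the mean of 2 arrays and the dashed line the floor of 91.4. For Aldoa 161889_f_at every cultured array lies above every fresh one, while Hk1 and Pgam1 overlap.

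Hk1 encodes the hexokinase found in most tissues. Fresh intensities of Hk1 were 3014 and 2463 in CD4+, 4811 and 3206 in CD8+ and 2891 and 2386 in DN cells. Cultured intensities were 2771 and 3553 in CD4+, 3496 and 2669.5 in CD8+ and 3454 and 2416 in DN cells. Fresh and cultured arrays overlapped in every subset, and both fresh CD8+ arrays lay above the 4 other fresh arrays. The mean culture effect on Hk1 was -0.01 ± 0.17 (95% confidence interval -0.38 to 0.37, adjusted p = 0.975).

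Hk2 encodes the inducible hexokinase, which rises in many cells that turn to glycolysis. Its probe set 94375_at read 254 and 316 in fresh CD4+, 201 and 344 in fresh CD8+ and 234 and 265 in fresh DN cells. After culture it read 112 and 83.7 in CD4+, 459 and 216 in CD8+ and 265 and -12.7 in DN cells. Both cultured CD4+ arrays lay below all 6 fresh arrays, the cultured CD8+ arrays bracketed most of them, and the cultured DN arrays disagreed with each other. The mean effect was -1.04 ± 0.54 (adjusted p = 0.145). It was 0.07 within experiment 1, -2.14 within experiment 2, and -1.69 without cultured DN replicate 1. In the last 2 the only cultured DN array is the one at -12.7, which enlarges them. The value below 0 inflates the DN difference of -1.88 ± 0.93 (adjusted p = 0.229).

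Pfkl encodes the liver-type phosphofructokinase subunit, the committed step of the pathway. It read 257 and 199 in fresh CD4+, 108 and 306 in fresh CD8+ and 223 and 187.5 in fresh DN cells. Cultured cells gave 129 and 62.8 in CD4+, 119 and 122 in CD8+ and 98.6 and 106 in DN cells. Cultured values were low and close to the floor, and 5 of the 6 fresh arrays lay above all of them. The exception was fresh CD8+ replicate 1. Pfkl fell by 0.92 on the log2 scale (± 0.28, 1.9-fold, adjusted p = 0.0237), and the effect was -0.65 within experiment 1 and -1.20 within experiment 2. Its call was kept in 16 of 22 other settings. Leaving out 1 array ended it in the other 6, at adjusted p between 0.0505 and 0.0633. Those arrays were both of cultured CD8+ cells, the first of cultured DN, fresh CD4+ and fresh DN cells, and the second of fresh CD8+ cells. No single subset passed for Pfkl (-1.24 ± 0.48 in CD4+, adjusted p = 0.0953).

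Aldoa encodes the aldolase that cleaves fructose 1,6-bisphosphate. Probe set 161889_f_at read 262 and 187 in fresh CD4+, 446 and 339 in fresh CD8+ and 282 and 266 in fresh DN cells. Following culture the values were 546 and 651 in CD4+, 516 and 584 in CD8+ and 529 and 793 in DN cells. All 6 cultured arrays lay above all 6 fresh arrays, and 7.68% of tested probe sets showed this. The mean rise was 1.05 ± 0.18 (2.07-fold, interval 0.66 to 1.44, adjusted p = 0.00106), and the call was kept in all 22 other settings. The rise was 0.72 within experiment 1 and 1.38 within experiment 2.

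The other Aldoa probe set, 160090_f_at, read 588 and 759.8 in fresh CD4+, 707 and 1034 in fresh CD8+ and 597.5 and 526 in fresh DN cells. After culture it read 530.2 and 1786 in CD4+, 1416 and 2446 in CD8+ and 1199 and 1989 in DN cells. Of the cultured arrays 5 lay above all fresh ones, and cultured CD4+ replicate 1 lay at their lower end. The mean rise was 1.04 ± 0.29 (2.06-fold, adjusted p = 0.0172). Without cultured CD8+ replicate 2 it was 0.91 with an adjusted p of 0.0534, the 1 of 22 settings that ended the call. Across the 12 arrays the pair correlated at r = 0.70. By the array's naming, the suffix f marks probe sets whose probes can match related sequences, so that Aldoa and near-identical copies cannot be told apart here.

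Tpi1 encodes triosephosphate isomerase, which interconverts the products of aldolase. It read 469 and 543 in fresh CD4+, 344 and 765 in fresh CD8+ and 531 and 277 in fresh DN cells. The cultured arrays gave 212 and 246 in CD4+, 375 and 462 in CD8+ and 302 and 351 in DN cells. Only in CD4+ cells were both cultured arrays below both fresh arrays of the same subset. The mean effect was -0.56 ± 0.24 (adjusted p = 0.0818) and that in CD4+ cells -1.14 ± 0.41 (adjusted p = 0.0751), neither past the threshold. The mean effect passed without fresh CD8+ replicate 1 (adjusted p = 0.0174) and without fresh DN replicate 2 (0.0492).

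Pgk1 encodes phosphoglycerate kinase, the first enzyme of the pathway to yield ATP. It read 271 and 410.0 in fresh CD4+, 812.5 and 797 in fresh CD8+ and 319 and 313 in fresh DN cells. Cultured intensities of Pgk1 were 215.5 and 795.5 in CD4+, 724 and 624 in CD8+ and 938 and 625 in DN cells. The fresh CD8+ arrays stood above the other 4 fresh arrays, and after culture both DN arrays and CD4+ replicate 2 read above all 4 fresh CD4+ and DN arrays. The mean effect was 0.44 ± 0.29 (adjusted p = 0.235), and 0.75 with an adjusted p of 0.0085 without cultured CD4+ replicate 1. In DN cells it was 1.27 ± 0.50 (adjusted p = 0.13), in CD4+ cells 0.31 ± 0.50 (0.662) and in CD8+ cells -0.26 ± 0.50 (0.802).

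Pgam1 encodes the phosphoglycerate mutase that follows. It read 340.1 and 363.5 in fresh CD4+, 615 and 754 in fresh CD8+ and 483 and 604 in fresh DN cells. After culture it read 446 and 485 in CD4+, 662 and 850.5 in CD8+ and 463 and 484 in DN cells. Both CD8+ arrays were the highest in each state. The subset effects ran from -0.19 in DN to 0.40 in CD4+ cells, and the mean effect was 0.12 ± 0.15 (interval -0.22 to 0.45, adjusted p = 0.557).

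Ldha encodes the lactate dehydrogenase subunit A, which makes lactate from pyruvate and restores NAD+. It read 1765 and 1780.1 in fresh CD4+, 1224 and 3211 in fresh CD8+ and 1794.5 and 1096.5 in fresh DN cells. The cultured values were 539 and 1288.5 in CD4+, 1923 and 2649 in CD8+ and 1425.5 and 1613 in DN cells. Both cultured CD4+ arrays were below both fresh CD4+ arrays, and the other subsets overlapped. The effect was -1.09 ± 0.49 in CD4+ cells (adjusted p = 0.135) and -0.26 ± 0.28 on average (adjusted p = 0.473). Ldha and Tpi1 shared their highest array, fresh CD8+ replicate 2, and their lowest, cultured CD4+ replicate 1, and correlated at r = 0.86 over 12 arrays, which share their preparation.

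**Figure D2:**
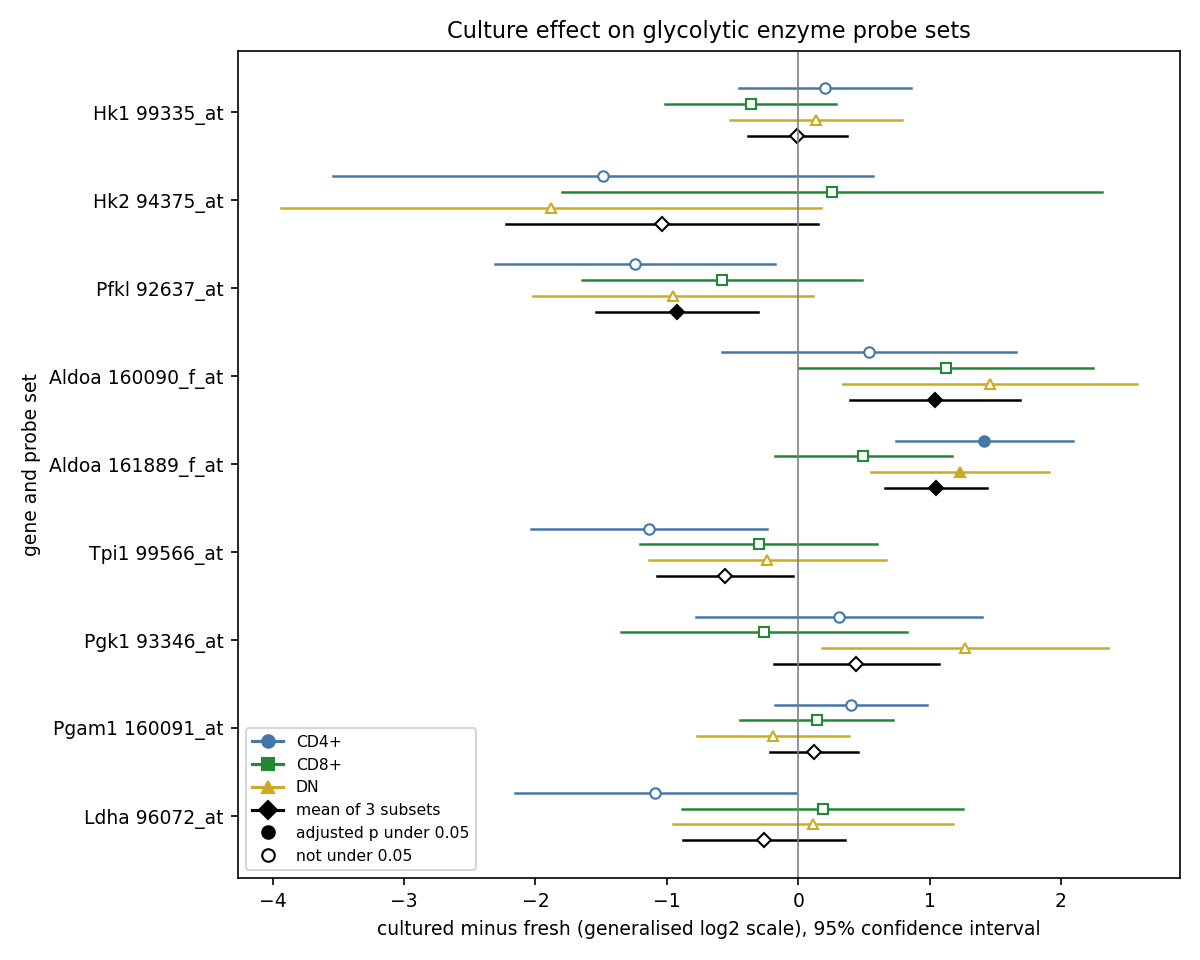
Difference between cultured and fresh cells (generalised log2 scale, horizontal axis) with its 95% confidence interval for each of the 9 tested probe sets, in CD4+ (blue circles), CD8+ (green squares) and DN cells (yellow triangles) and as the mean of 3 subsets (black diamonds). Filled symbols have an adjusted p under 0.05, which are the mean effects of Pfkl and both Aldoa probe sets, and Aldoa 161889_f_at in CD4+ and DN cells.

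Within single subsets, the calls came from Aldoa. In CD4+ cells 1 of the 9 probe sets passed, beside 18.4% of all tested. Aldoa 161889_f_at went from 224.5 ± 53.2 to 598 ± 74.2 (mean ± SD, n = 2), a rise of 1.42 ± 0.31 (adjusted p = 0.0107). This call was lost with only the 2 CD4+ groups in the fit (adjusted p = 0.0774) and without fresh CD4+ replicate 2 (0.122). In DN cells 1 of 9 passed, beside 9.9% of all. The same probe set went from 274 ± 11.3 to 661 ± 187, a rise of 1.23 ± 0.31 (adjusted p = 0.0293), which was lost without any 1 of the 4 DN arrays (0.0618 to 0.191) and with no filter on dim probe sets (0.0533). With the experiment number as a block, Aldoa 160090_f_at also passed in DN cells (adjusted p = 0.027, against 0.0933 without the block). In CD8+ cells 0 of 9 passed by limma, beside 8.13% of all. At an unadjusted p under 0.05 there was 1 (Aldoa 160090_f_at, adjusted p = 0.211), beside 1153 of 4735 genes.

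Other subset calls appeared when an array was left out. Hk2 passed in DN cells, at -3.85, without cultured DN replicate 1, the array that read 265. This leaves 1 cultured DN array, at -12.7, and a value below 0 enlarges the difference. In CD4+ cells Hk2 passed without either cultured DN array. Pgk1 passed in DN cells without either cultured CD4+ array (0.0164 and 0.017), as did Aldoa 160090_f_at (0.0194 and 0.0197), and Pgk1 passed in CD4+ cells without cultured CD4+ replicate 1 (1.25, 0.0496). Pfkl and Tpi1 passed in CD4+ cells without either fresh CD8+ array (0.0373 to 0.045), and Ldha did without cultured CD4+ replicate 2 (-1.71, 0.0266). In the fit all groups share 1 spread per probe set, so an array of another group enters it.

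The culture effect was not shown to differ between subsets for any enzyme. In the interaction terms 0 of 9 probe sets passed by limma, beside 0% of all tested. At an unadjusted p under 0.05 there were 0 of 9, beside 413 of 4735 genes for CD8+ minus CD4+, 199 for CD8+ minus DN and 103 for DN minus CD4+. The smallest adjusted p was 0.593, for Aldoa 161889_f_at, whose effect in CD8+ cells minus that in CD4+ cells was -0.92 ± 0.43 (interval -1.87 to 0.04). For Pgk1 the CD8+ effect minus the DN effect was -1.53 ± 0.70 (adjusted p = 0.998), and for Ldha the CD8+ effect minus the CD4+ effect was 1.27 ± 0.69 (adjusted p = 0.613).

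Between fresh subsets no enzyme passed the test. Of 4735 genes, 546 had an unadjusted p under 0.05 in CD8+ against CD4+ cells. In CD8+ against DN cells 469 did, and in DN against CD4+ cells 64. In CD8+ against CD4+ cells 0 of 9 probe sets passed by limma, beside 1.98% of all, and 3 had an unadjusted p under 0.05. Pgam1 was at 685 ± 98.1 against 352 ± 16.6, a difference of 0.95 ± 0.26 (adjusted p = 0.111). Pgk1 was at 805 ± 11.0 against 341 ± 98.2, a difference of 1.26 ± 0.50 (adjusted p = 0.334), and Aldoa 161889_f_at at 392 ± 75.5 against 224.5 ± 53.2 (0.80 ± 0.31, adjusted p = 0.317). In CD8+ against DN cells 0 passed, beside 1.43% of all, and 1 had an unadjusted p under 0.05, which was Pgk1 (1.34 ± 0.50, adjusted p = 0.345). In DN against CD4+ cells 0 passed, beside 0% of all, and 1 had an unadjusted p under 0.05, which was Pgam1 (0.62 ± 0.26, adjusted p = 1). Pgk1 passed between fresh CD8+ cells and each other subset when either cultured CD4+ array was left out of the fit, with adjusted p between 0.0439 and 0.0454.

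Cultured subsets gave the same count. Of 4735 genes, 748 had an unadjusted p under 0.05 in CD8+ against CD4+ cells. In CD8+ against DN cells 529 did, and in DN against CD4+ cells 178. In CD8+ against CD4+ cells 0 of 9 passed by limma, beside 2.29% of all, and 2 had an unadjusted p under 0.05. Ldha was at 2286 ± 514 against 914 ± 529.8, a difference of 1.44 ± 0.49 (adjusted p = 0.183), and Pgam1 at 756 ± 133 against 466 ± 27.2 (0.69 ± 0.26, adjusted p = 0.244). In CD8+ against DN cells 0 passed, beside 1.3% of all, and 2 had an unadjusted p under 0.05. These were Pgam1 (0.66 ± 0.26, adjusted p = 0.388) and Hk2 (2.22 ± 0.93, adjusted p = 0.429). In DN against CD4+ cells 0 passed and 0 had an unadjusted p under 0.05, beside 0% of all that passed. Without cultured CD4+ replicate 2, which leaves 1 cultured CD4+ array assumed to vary like the other groups, Aldoa 160090_f_at, Pgk1 and Ldha passed between CD8+ and CD4+ cells (adjusted p = 0.0252, 0.0197 and 0.0291), and Pgk1 between DN and CD4+ cells (0.0233). Without cultured DN replicate 1, Hk2 passed between CD8+ and DN cells, with only the cultured DN array at -12.7 left. Of the 9 differences between CD8+ and CD4+ cells 7 were above 0 in each state, beside 2373 fresh and 2223 cultured of 4735 genes. The 2 Aldoa probe sets count separately here and differed in sign in cultured cells (0.93 and -0.12). This is a description in which the arrays are shared, and no probe set passed.

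The arrays were alike in scale and differed in noise (26.2 to 108 intensity units, from the values below 0) and in their Gapdh controls. Gapdh is read by a control at each end of its transcript, and degraded RNA can raise the 3′ reading over the 5′ one. This ratio was 2.55 on fresh CD8+ replicate 1, 1.97 on cultured CD4+ replicate 1 and 1.34 on cultured DN replicate 1, and 0.89 to 1.04 on the other 9. Leaving out these 3 arrays leaves 1 array in each of their groups. The mean culture effect was then -1.88 on Hk2, -0.68 on Tpi1 and 0.66 on Pgk1. With all arrays it was -1.04, -0.56 and 0.44. For Hk2 the 1 cultured DN array left read -12.7, and a value below 0 enlarges the difference. More probe sets passed without the 3 arrays, among the members and among all tested. The actin controls, read the same way, did not set these arrays apart: their ratio was 0.91, 1.16 and 0.92 in turn, and it was highest, 1.28, on cultured CD4+ replicate 2, whose Gapdh ratio was 0.93. The part of RNA quality in these results was not tested. Gapdh, the enzyme between aldolase and Pgk1, was read only by its control probe sets, which were left out of all tests. Its 3′ control read 2328 to 3861 on the fresh and 2555 to 6136 on the cultured arrays. Its 5′ control read 1030.2 to 4337 on the 6 fresh and 1300 to 6224 on the 6 cultured arrays, which overlap. On the 9 arrays of low ratio it read 2319.6 to 4337 on 5 fresh and 5167 to 6224 on 4 cultured arrays, with no overlap. These 9 were chosen by a ratio that holds the 5′ reading, so the choice itself can make this gap. Tpi1 and Ldha did not separate the same arrays.

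**Figure D3:**
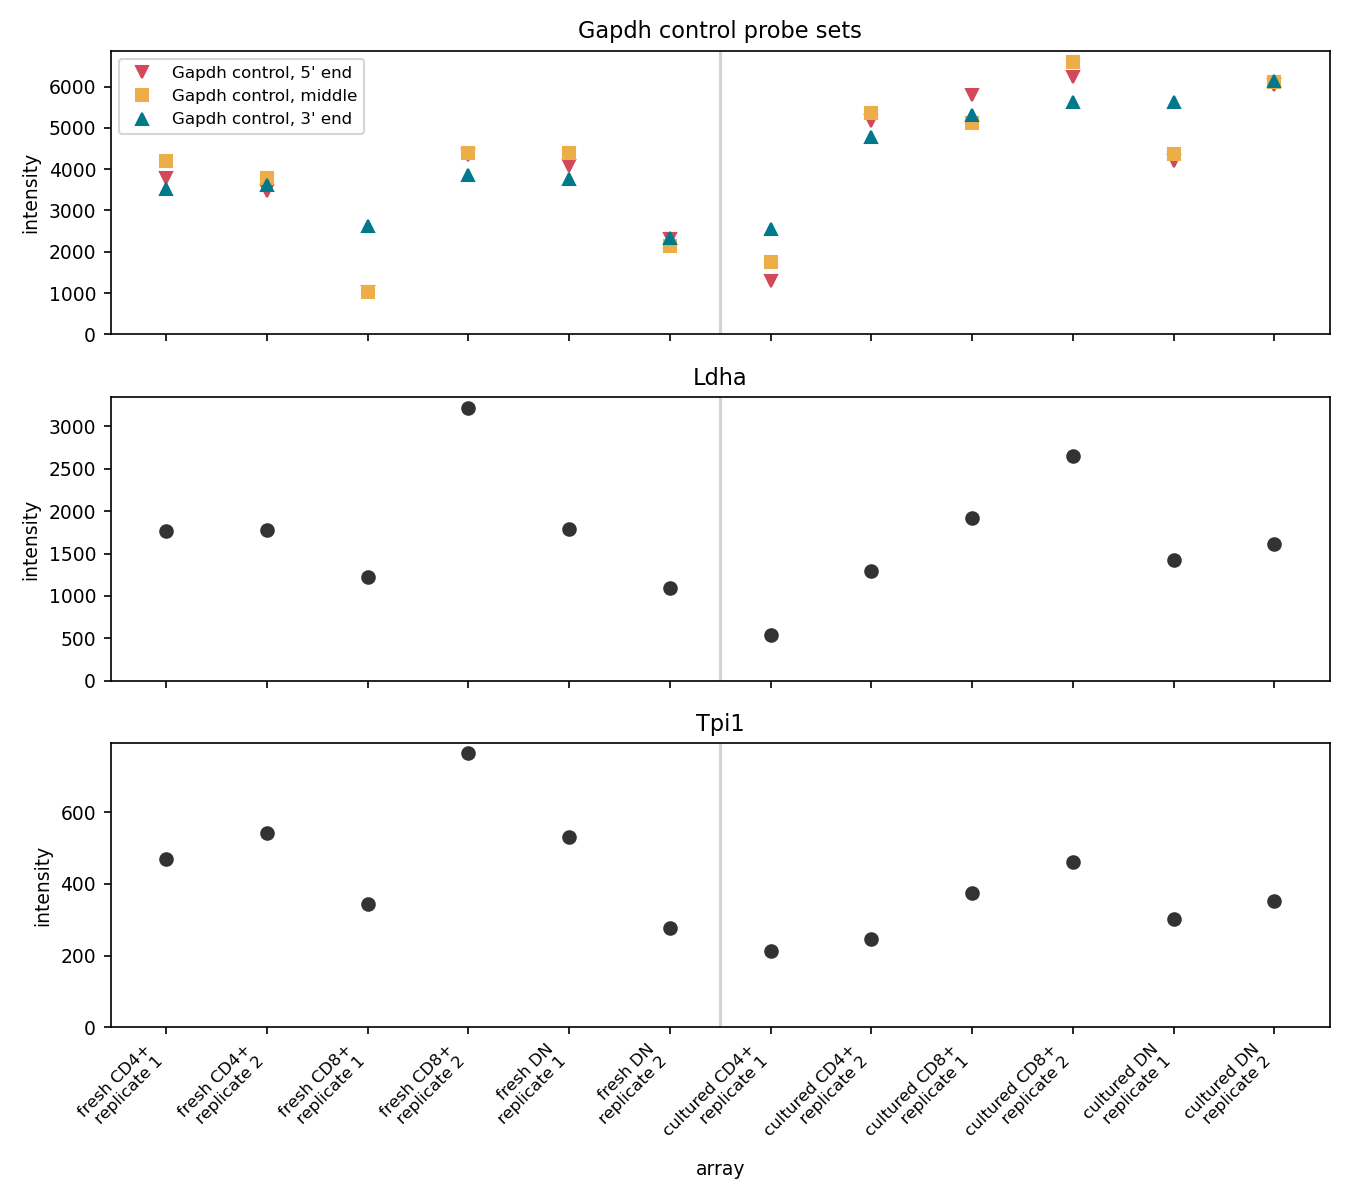
Intensity (linear axis from 0) on each of 12 arrays, fresh on the left and cultured on the right, of 3 Gapdh control probe sets (top: 5′ end, middle and 3′ end of the transcript), Ldha (centre) and Tpi1 (bottom). The Gapdh controls part on fresh CD8+ replicate 1, cultured CD4+ replicate 1 and cultured DN replicate 1, and Ldha and Tpi1 both peak on fresh CD8+ replicate 2 and are lowest on cultured CD4+ replicate 1.

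Enzymes next to the members were read from a list of 22 further glycolytic genes, mainly isoenzymes. Probe sets existed for 15, and 7 were tested by their brightest probe set. Of these 4 were higher after culture and 0 lower by limma, beside 760 and 1151 of the 4735 genes. Eno2 and Pklr rose above the floor on cultured arrays only and so could enter the test only by being higher, and of the 5 other genes 2 were higher. Of the 7 genes, 5 were higher with the replicate block, 3 with no filter, and 2 when fresh CD4+ replicate 2, fresh DN replicate 2 or the first replicate of any cultured group was left out. Pfkp encodes the platelet-type phosphofructokinase, the isoenzyme of Pfkl. Its probe set 97834_g_at went from 69.1 ± 20.2 to 391 ± 277 in CD4+, from 320.5 ± 129 to 735 ± 48.9 in CD8+ and from 86.0 ± 44.1 to 489.5 ± 33.5 in DN cells. The mean rise was 1.97 ± 0.30 (adjusted p = 0.000526), and it was 1.96 ± 0.21 by the other Pfkp probe set. Both fresh CD4+ arrays were below the floor, so the rise there was at least 3.53-fold. The phosphofructokinase genes thus went opposite ways, Pfkp higher and Pfkl lower. Eno2, the enolase best known from neurons, lay below the floor on all 6 fresh arrays and reached 170 ± 36.1 in CD4+, 116 ± 56.9 in CD8+ and 186 ± 44.2 in DN cells. Its rise was at least 1.77-fold, 1.19-fold and 1.93-fold in turn (adjusted p = 0.00043 for the mean). The other calls were Pklr and Pfkfb3 (adjusted p = 0.0335 and 0.0381), named after their values were seen. They were lost without 10 and 7 of the 12 single arrays, and that of Pklr also with a hard floor (0.15, adjusted p = 0.327).

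**Figure D4:**
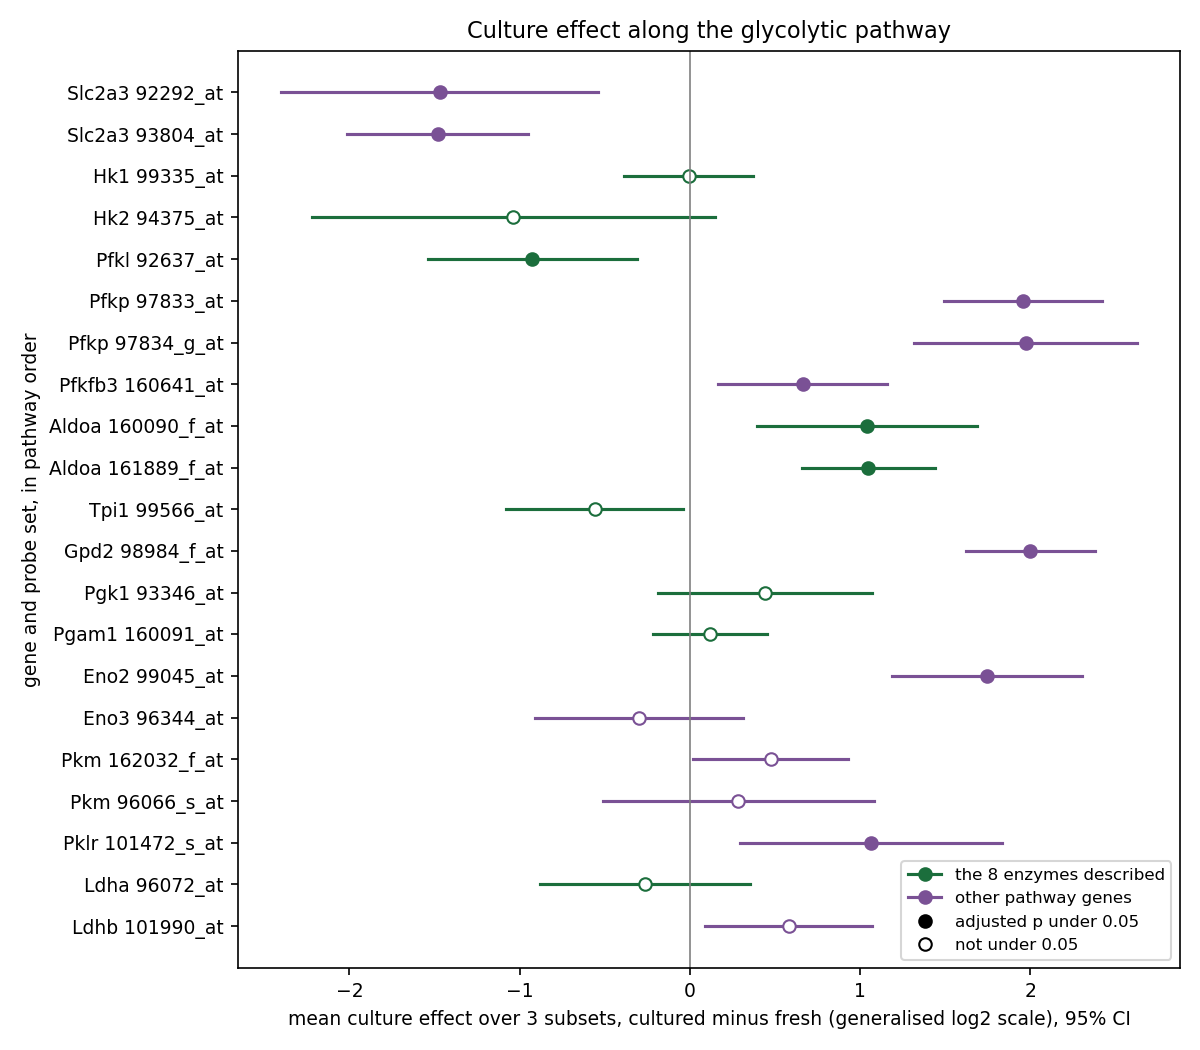
Mean culture effect over 3 subsets (generalised log2 scale, horizontal axis) with its 95% confidence interval for glucose transporter Slc2a3, the member enzymes (green) and neighbouring pathway genes (purple), from the top of glycolysis down. Filled points have an adjusted p under 0.05: Slc2a3 and Pfkl lie to the left of 0, and Pfkp, Pfkfb3, Aldoa, Gpd2, Eno2 and Pklr to the right.

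After culture 760 of the 4735 genes were higher and 1151 lower. Of 16 tested genes of sugar and lactate transport, pyruvate entry and the pentose phosphate path, 2 were higher and 4 lower. The 4 became 2 without fresh CD4+ replicate 2, fresh DN replicate 2 or cultured DN replicate 1, and 6 without cultured CD4+ replicate 1. Slc2a3, a glucose transporter of high affinity, went from 424 ± 126 to 105 ± 11.2 in CD4+ and from 265 ± 66.7 to 73.7 ± 29.9 in DN cells (probe set 93804_at). In CD8+ cells it was low in both states, at 74.5 ± 27.6 and 35.7 ± 6.86. Its mean effect was -1.48 (adjusted p = 0.000878), and fresh CD8+ cells were below fresh CD4+ cells by -2.39 ± 0.42 (adjusted p = 0.0134). Gpd2, the mitochondrial glycerol 3-phosphate dehydrogenase, read 301 to 415 on the fresh and 1108 to 1705 on the cultured arrays. Its rise was 2.00 ± 0.17 (adjusted p = 1.29e-05), by a probe set whose suffix f again allows related sequences. The remaining calls were Pgd, higher, and Pgls, Pdk3 and Pdk1, lower, named after their values were seen. Pgd was called by its brighter probe set (1.94). The other, above the floor on 3 arrays, did not pass (0.29, adjusted p = 0.525 by limma). Pdk1 rose above the floor on fresh arrays only, and its call was lost without 8 of the 12 single arrays, that of Pdk3 without 4.

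Of 14 tested regulators and other targets of the hypoxia response, 4 were higher and 2 lower, and 6 were higher with the replicate block or without cultured CD4+ replicate 2. Over all 4735 genes 760 were higher and 1151 lower. The 2 lower genes of this list, Ddit4 and Egln1, rose above the floor on fresh arrays only and so could enter the test only by being lower. Mxi1, a repressor of Myc targets, rose by 2.36 ± 0.19 (adjusted p = 8.64e-06), and Ndrg1, a stress-induced gene, by 3.18 ± 0.26 (9.79e-06), at least 12.5-fold in CD4+ and 6.62-fold in CD8+ cells. Hmox1, which degrades heme, rose by 1.81 (0.0013). Ddit4, an inhibitor of mTORC1, went from 769 ± 19.9 in CD4+ and 919 ± 301 in DN cells to below the floor, at least 7.95-fold and 9.25-fold lower (adjusted p = 0.00024 for the mean effect). Egln1 fell at least 1.78-fold in CD4+, 1.42-fold in CD8+ and 1.40-fold in DN cells, and cultured values below 0 enlarge its log2 difference. The remaining calls were Hif1a (0.49, adjusted p = 0.0471) and Egln1 (-3.42, adjusted p = 0.00184), named after their values were seen. That of Hif1a was lost without 10 of the 12 single arrays and in 4 other settings.

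The members did not share 1 profile. Correlations between their tested probe sets over the 12 arrays ran from r = -0.79 (Pfkl and Aldoa 161889_f_at) to r = 0.86 (Ldha and Tpi1). Each gene's own r with the mean standardised profile of the 8 genes, which it is part of, ran from 0.25 for Pfkl to 0.88 for Ldha. The genes outside the list most like that mean profile over 12 arrays were Vamp3 (r = 0.93), Nucb2 (0.92), Pdia4 (0.91), Agpat3 and Ssr2 (0.90 each). Shared preparation and scale enter all of these values.

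The sorted cells carried the markers of dendritic cells, and 7 of 7 such markers were tested. After culture 4 were higher and 3 lower, beside 760 and 1151 of the 4735 genes. Of the macrophage markers 7 of 8 were tested, and 1 was higher (Cd14) and 4 lower. Of these 4, C1qc rose above the floor on fresh arrays only and so could enter the test only by being lower. The summed level of the macrophage markers was 1230.1 to 2319.5 on the fresh and 861 to 2810.1 on the cultured arrays, with Marco below the floor on all. T cell markers Cd3d, Cd3e, Cd3g and Thy1 and neutrophil markers Ltf, Mpo, Ngp and S100a9 were below the floor on all 12 arrays, and the 1 tested gene of each list was not called after culture. The 5 tested B cell markers gave 1 higher and 1 lower, with summed levels of 473 to 1357 fresh and 474 to 1350.1 cultured. The part of other cells in the members' values was not tested, and in sorted bulk RNA fewer cells of a type and less RNA per cell cannot be told apart.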

How the data were processed

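RNA of 6 groups with 2 arrays each was measured on oligonucleotide arrays. The deposited intensity values are Average Difference values to which the authors applied global scaling, per the labels; the software is not given in the sources used here. Between 19.7% and 26.5% of an array's values lay below 0. No further normalization was applied. Of 12488 probe sets, 66 controls were left out. The platform annotation gave 1 symbol to 10833 of the other 12422, several to 396 and none to 1193.

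Each intensity x was transformed to log2 of (x + √(x² + c²)) divided by 2, called generalised log2. The constant c was 45.7: the root mean square of the values below 0 was taken per array, and then the median of the 12. The floor, 91.4, is 2 times c. The 6159 probe sets above it on at least 2 of 12 arrays were tested with limma 3.58.1 (R 4.3.3; lmFit, eBayes with trend and robust settings, 6 group means, 6 residual degrees of freedom), with Benjamini-Hochberg adjustment over all tested probe sets at 0.05. The script was tested on simulated data. "At least N-fold" compares the bright group with the higher of the floor and the value of the dim group, as means on the log2 scale.

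The labels do not say that replicates came from separate animals, so p-values measure the spread between these arrays, which may be technical; the number of arrays limits the precision. Arrays of the same experiment number deviated together: in 15 of 15 pairs of groups the deviations of their first replicates from the group means correlated above 0.1 (0.11 to 0.44), so the number was taken to pair them, and a fit with it as a block is an alternative. The members and lists were chosen with earlier results of these data known. Genes named were all members; of the other lists the first 8 called by lowest p in the mean culture effect and up to 6 called between subsets; the 5 genes most alike by correlation; and Cd8a, Cd4 and Itgax, which marked the sort. Of the sort genes Itgax was called lower after culture (-0.86, adjusted p = 0.014), while Cd4 was at -0.99 (0.0947) and Cd8a at -0.71 (0.0826). Marker lists of NK cells, red cells and platelets had 1 tested gene each and 0 calls after culture by limma, also at an unadjusted p under 0.05. The NK cell gene, Klrd1, was lower in CD8+ than in DN cells, both fresh (-2.34, adjusted p = 0.0277 by limma) and cultured (-2.48, 0.0235). The red cell gene, Hba-a1, read higher on replicate 1 than on replicate 2 in each group. It was highest, 2469, on cultured CD4+ replicate 1, against 165 on replicate 2. The part of such cells in the members' values was not tested. Promoter windows and symbols are from RefSeq tables (GRCm38.p6). Alternatives were other offsets, a hard floor, quantile normalization, other filters, plain eBayes, array weights, the replicate block, only the groups compared, leaving out each array, and leaving out 3 arrays of high Gapdh ratio.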

Additional observations from a re-analysis of the deposited data

Results flagged for a closer look

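Pgk1, which encodes phosphoglycerate kinase, had culture effects of opposite sign in CD8+ and DN cells. Neither passed by limma (-0.26 ± 0.50, adjusted p = 0.802 in CD8+ and 1.27 ± 0.50, 0.13 in DN cells). Both cultured CD8+ arrays lay below both fresh CD8+ arrays, and both cultured DN arrays lay above both fresh DN arrays. How many of all probe sets do this was not counted. The culture effect in CD8+ cells minus that in DN cells was -1.53 on the generalised log2 scale (interval -3.07 to 0.01). The interaction term of limma for this difference had an adjusted p of 0.998, so a difference between the subsets was not shown.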

How the results depend on the processing

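Of the single results for member probe sets under all alternatives, 2625 kept their side of the threshold, 43 gained and 14 lost a call, and 0 reversed. A reversal was a change of sign with an adjusted p under 0.05 in either fit. A change of sign where neither fit passed was counted as kept. The number of member probe sets called in the mean culture effect, 3, became 6 without the 3 arrays of high Gapdh ratio and ran from 1 to 4 without 1 array. In CD4+ cells 1 became 0 with only the groups compared and 5 without the 3 arrays (0 to 3 without 1 array). In CD8+ cells 0 became 1 without the 3 arrays (0 without any 1 array). In DN cells 1 became 0 with no filter, 2 with the replicate block, and 3 with array weights, with only the groups compared or without the 3 arrays (0 to 3 without 1 array). Between cultured subsets 0 became 2 without the 3 arrays and ran from 0 to 4 without 1 array, and between fresh subsets it ran from 0 to 2. Differences in culture effect stayed at 0 throughout. Calls over all 6159 probe sets shifted as well. With only the groups compared they went from 1133 to 254 in CD4+ and from 610 to 1178 in DN cells. Without the 3 arrays they rose in the mean effect and in each subset. The cause of these shifts was not tested. Among member probe sets the replicate block changed only the call of Aldoa 160090_f_at in DN cells, while over all probe sets it moved the calls in CD4+ cells from 1133 to 1786 and in DN cells from 610 to 1039. Over all settings the calls of all probe sets in the mean effect ran from 1699 to 3131. With 2 arrays a group, effects of 2-fold were often not called. In simulated data 39 of 100 probe sets changed by 1 on the log2 scale and 94 of 100 changed by 2 were called. Signal limits Pfkl, whose cultured arrays lay near the floor, and Hk2, for which 1 cultured CD4+ and 1 cultured DN array lay below it.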
